A study of Mus musculus with 6 samples.

Results

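The unfolded protein response and the folding machinery of the endoplasmic reticulum (ER) were described in single cells of mouse melanoma through a list of 33 genes, given by their symbols. All 33 were among the 25215 genes measured, and all 33 had TPM (transcript abundance per length, as a share of a fixed total per cell) above 0 in more than 5 retained cells, as did 11264 genes in all. No measured value of these genes was a criterion for the list, but the list was made with earlier results of these data known. It held 9 chaperones and partners of Hspa5, 4 genes of glycoprotein folding, 6 isomerases, 4 stress sensors or their transcription factor, 6 genes of ER-associated degradation and 4 genes of the translocation channel.

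The cells came from tumors of 6 C57BL/6 mice, 2 in each of 3 conditions, grown from 50000 cells injected under the skin on the flanks and harvested on day 15. B16 tumors were grown from the melanoma line B16-F10 and left untreated, and B16PD1 tumors were grown from the same line in mice that were given anti-PD1, 200 μg each time, on day 5, day 8 and day 11. R499 tumors were grown from Res499, 1 line derived from a B16-F10 tumor that relapsed after radiation with anti-CTLA4, and were left untreated, so line and condition cannot be told apart for R499. CD45-negative cells were sorted, which removes most immune cells, and full-length Smart-seq libraries were prepared on the ICELL8 platform, where each cell has its own well. No well was shared by any of the 6 tumors.

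Of 602 cells, 507 had more than 1000 genes detected and under 10% of TPM from mitochondrial genes and were retained, with between 75 and 91 cells in a tumor. Reads per cell are unknown from TPM, and the median number of genes detected in a retained cell was 3647 and 3388.5 in B16, 3807.5 and 3838.5 in the B16PD1 pair, and 3141 and 3682 in R499. The melanocyte genes Pmel, Tyrp1 and Dct were detected in 100% of retained cells. Plasma cells, which make large amounts of ER, were checked as another source: Jchain and Igkc were at 0 in every retained cell, Mzb1 was detected in 1 cell and Ighm in 2, while Sdc1, which is not limited to plasma cells, was detected in 32.3%. The 5 plasma cell markers summed to between 1.02 and 2.04 in a tumor on the log2 scale given next. The immune markers reached at most 5.52% of cells (Fcer1g), the fibroblast markers 1.58% (Pdgfrb), and the endothelial markers 2.56% (Vwf). The summed mean log2(TPM + 1) of the 8 immune markers was 0.59 to 1.58 in the 6 tumors, that of the 7 fibroblast markers 0 to 0.38, and that of the 5 endothelial markers 0.02 to 0.22, while the 7 melanocytic markers summed to between 62.2 and 64.8.

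Secreted and membrane proteins enter the ER through the Sec61 channel and are folded there by chaperones, protein disulfide isomerases and a lectin cycle that retains unfinished glycoproteins. When unfolded protein accumulates, 3 sensors in the ER membrane respond: Ern1 (IRE1) splices the mRNA of the transcription factor Xbp1, Atf6 is cleaved to release a transcription factor, and Eif2ak3 (PERK) phosphorylates a translation initiation factor. Xbp1 and Atf6 then raise the transcription of chaperones and degradation genes. Pigment cells make abundant melanosomal glycoproteins that pass through this machinery.

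Promoters of the members were first searched for the sequences that these factors bind. Atf6 and Xbp1 are known to act through the ER stress response element (ERSE), written here as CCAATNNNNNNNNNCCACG, and the related ERSE-II, ATTGGNCCACG, where N is any base. Both strands were searched from 250 bases before to 50 bases after the transcription start in RefSeq promoters of GRCm38.p6. Of the 33 members, 28 had a promoter in the table, and Ssr2, Derl1, Atf6, Hyou1 and Manf had none. ERSE was found in 8 of the 28 (28.6%) and in 37 of all 27025 genes with a promoter (0.137%). ERSE-II was found in 2 of the 28 (7.14%) and in 12 of all genes (0.0444%). These motifs end in the same 5 letters, but no member held both. The UPR element TGACGTGG was found in 0 of the 28 members and in 193 of all genes (0.714%). The motifs were described in genes of this response, so a high share among the members was known when the list was made, and a match is only a match of letters.

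The stretches that hold the motif are shown because the 10 members with one can then be compared with the other members in expression. They are written 5′ to 3′ on the strand of the gene, with the motif in capitals. Positions count from the RefSeq start, with -1 as the base before it, and a motif that begins with CGTGG lies on the other strand. The stretch of Hspa5 covers all 250 bases before the start (chr2:34771840-34772089, + strand), with the motif at -65 to -47.
Hspa5: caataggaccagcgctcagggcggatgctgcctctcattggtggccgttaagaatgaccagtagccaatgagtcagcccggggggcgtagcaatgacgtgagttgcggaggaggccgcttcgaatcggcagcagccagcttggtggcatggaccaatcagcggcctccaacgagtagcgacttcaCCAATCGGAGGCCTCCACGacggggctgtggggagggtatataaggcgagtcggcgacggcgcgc
The stretch of Hsp90b1 (chr10:86705513-86705676, - strand) holds 2 motifs, at -212 to -194 and, on the other strand, at -107 to -89.
Hsp90b1: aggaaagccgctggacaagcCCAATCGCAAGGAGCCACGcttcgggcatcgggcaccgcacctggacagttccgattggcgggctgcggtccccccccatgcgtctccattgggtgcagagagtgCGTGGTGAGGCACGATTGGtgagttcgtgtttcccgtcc
Those of Pdia6 (chr12:17266471-17266529, + strand), Calr (chr8:84847055-84847113, - strand), Canx (chr11:50325780-50325838, - strand), Creld2 (chr15:88819500-88819558, + strand), Dnajc3 (chr14:118937807-118937865, + strand) and Syvn1 (chr19:6046512-6046570, + strand) each hold 1 ERSE.
Pdia6: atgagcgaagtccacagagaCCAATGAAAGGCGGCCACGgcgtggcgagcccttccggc
Calr: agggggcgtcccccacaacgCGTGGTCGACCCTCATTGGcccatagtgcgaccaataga
Canx: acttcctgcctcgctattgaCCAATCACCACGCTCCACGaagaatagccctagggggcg
Creld2: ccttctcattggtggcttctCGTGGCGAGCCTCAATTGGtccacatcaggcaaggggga
Dnajc3: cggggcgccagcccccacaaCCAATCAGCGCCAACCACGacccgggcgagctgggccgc
Syvn1: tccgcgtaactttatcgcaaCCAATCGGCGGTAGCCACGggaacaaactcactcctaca
Those of Herpud1 (chr8:94386357-94386407, + strand) and Dnajb11 (chr16:22857843-22857872, + strand) hold ERSE-II, which lies at -52 to -42 in Herpud1 and past the start, at 8 to 18, in Dnajb11.
Herpud1: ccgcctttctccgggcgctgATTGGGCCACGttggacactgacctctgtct
Dnajb11: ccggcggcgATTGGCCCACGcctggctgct

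The members ranged from genes found in nearly every cell to genes found in few. By mean TPM, which is scaled for transcript length, P4hb (773), Hspa5 (703), Sec61g (698), Sec61b (670) and Ssr2 (633) were the most abundant, and 9 of the 33 were among the 500 most abundant genes. TPM was above 0 in at least 90% of retained cells for 10 members and in at least 50% for 26. The stress sensors Ern1 and Eif2ak3 were near the other end, with a mean TPM of 2.60 and 1.81. The sensor Atf6 had a mean TPM of 10.5 and was detected in 60.6% of cells. Ern1 was detected in 45 of 507 cells (8.88%, 95% Wilson interval 6.70 to 11.7), Eif2ak3 in 52 (10.3%, 7.91 to 13.2), and the glycoprotein folding gene Uggt2 in 25 (4.93%, 3.36 to 7.18). These intervals cover counting error only. A retained cell had between 7 and 32 of the members detected, with a median of 23.

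**Figure D1:**
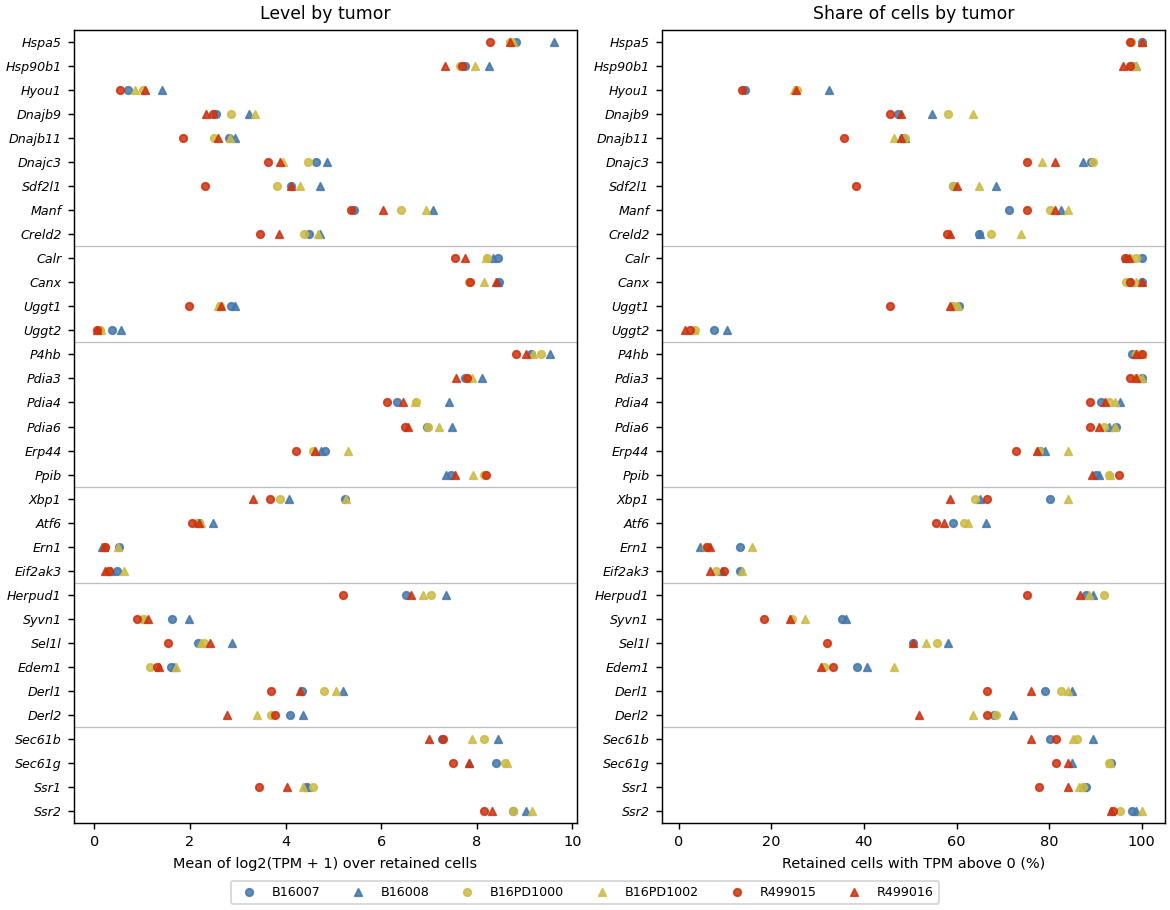
Level and detection of the 33 members in each tumor. On the left is the mean of log2(TPM + 1) over retained cells and on the right the percentage of retained cells with TPM above 0, with 1 symbol for each of the 6 tumors and lines between the roles. The R499 tumors (red) lie at the left of many rows, and B16008 (blue triangles) lies at the right of several, among them Hspa5, Pdia4 and Manf.

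Levels of the members were compared between conditions with the tumor as the replicate. For each tumor, log2(TPM + 1) of a gene was averaged over retained cells, and the 6 tumors entered a single limma fit over the 11264 genes. In such averages, fewer cells with a transcript and less of it per cell cannot be told apart. Averaged over the 33 members, this level was 4.90 and 5.22 in the B16 tumors B16007 and B16008, 4.87 and 5.03 in the B16PD1 tumors B16PD1000 and B16PD1002, and 4.35 and 4.62 in the R499 tumors R499015 and R499016. R499 thus lay below the other 4 tumors. No member passed an adjusted p of 0.05 in limma in any comparison, so differences are given as values with their errors.

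Between R499 and B16, 32 of the 33 members were lower in R499 and only Ppib was higher. The median difference over the members was -0.58 on the log2(TPM + 1) scale, against -0.07 over all genes tested and -0.13 over the 2776 genes detected in at least 50% of cells. Of all genes tested, 64.1% were lower in R499. By the limma test 0 of 33 members passed the adjusted threshold, as did 7 of all genes (0.0621%), and 12 members had an unadjusted p under 0.05, each lower, against 8.12% of all genes that were lower at that level. Both R499 tumors lay below both B16 tumors for 24 of the 33 members and for 30.1% of all genes.

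Between R499 and B16PD1, 32 of 33 members were again lower in R499, with Canx the exception. The median difference over the members was -0.42 and that over all genes -0.09. None of the members passed the adjusted threshold in limma, where 8 genes in all did (0.071%), and 9 members were lower with an unadjusted p under 0.05, against 8.64% of all genes. Both R499 tumors lay below both B16PD1 tumors for 16 members and for 31.3% of all genes. This comparison and the preceding one share the R499 tumors and are not independent of each other.

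Between B16PD1 and B16, 21 members were lower and 12 higher after anti-PD1. The median difference was -0.13 over the members and 0.01 over all genes, and it turned to 0.05 when B16008 was left out. By limma 0 members and 0 genes in all passed the adjusted threshold (0%), while 2 members, Syvn1 and Uggt2, were lower with an unadjusted p under 0.05, against 1.67% of all genes, of which 528 had an unadjusted p under 0.05 in either direction. Both B16PD1 tumors lay below both B16 tumors for 8 members and for 15.4% of all genes.

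**Figure D2:**
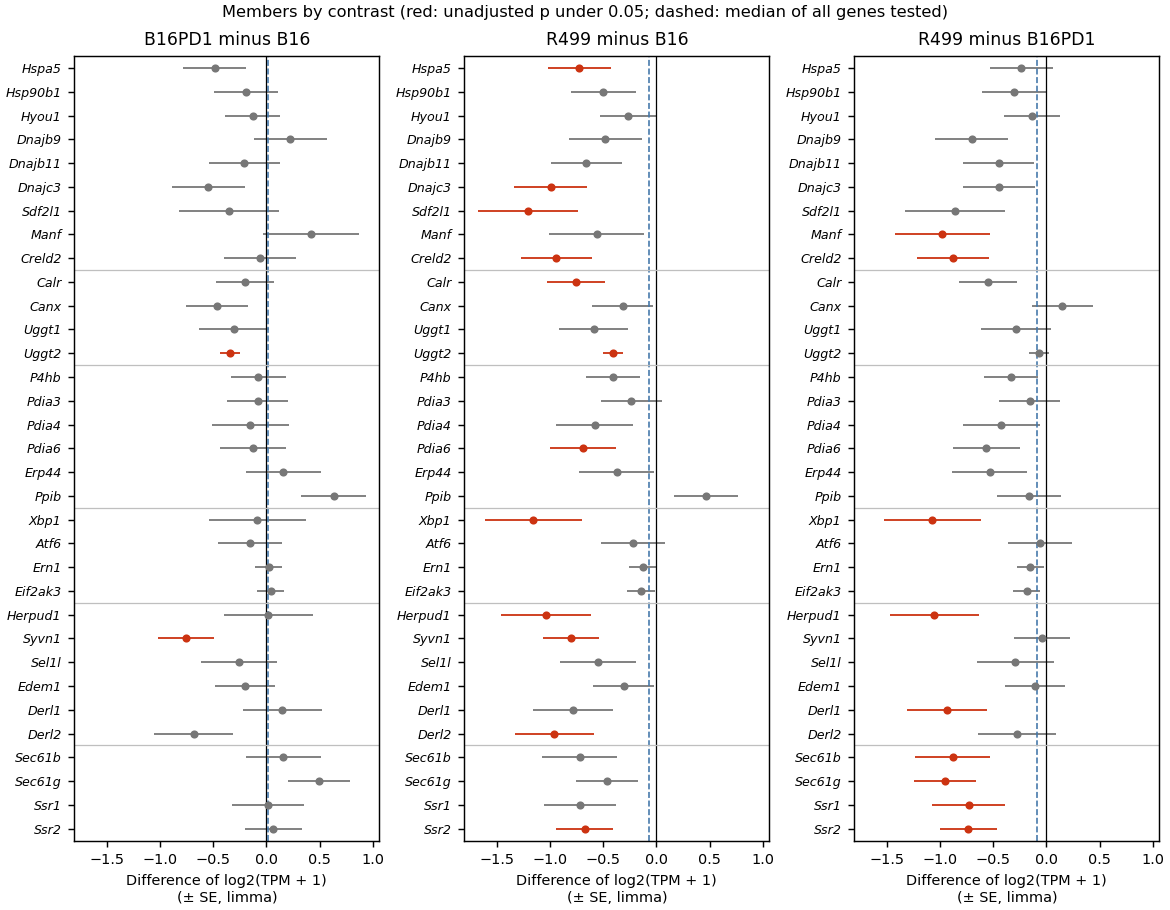
Differences of the 33 members in the 3 comparisons. Each point is the difference in mean log2(TPM + 1) between conditions with its standard error from limma, red where the unadjusted p was under 0.05, and the dashed line is the median over all genes tested. In both comparisons with R499, 32 of 33 points lie to the left of 0, whereas 21 do so in B16PD1 minus B16.

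The difference of R499 depended on single tumors and on how the number of genes detected per cell was treated. Without B16008 the median difference of R499 to B16 was -0.33 and 5 members had an unadjusted p under 0.05, against 9.04% of all genes in either direction. Without R499015 it was -0.35 with 3 such members, against 6.31% of all genes. Of the 33 members, 25 were higher in B16008 than in B16007, whereas 40.1% of all genes were. In R499016, 24 members were higher than in R499015, as were 56.4% of all genes. Members and genes detected moved together within every tumor, with a Pearson's r over cells of 0.46 to 0.78 between the mean level of the members in a cell and its number of genes detected. Among the 253 cells with 3000 to 5000 genes, an alternative chosen after seeing the data, the median difference of R499 to B16 was -0.30, with 28 of 33 members lower and 2 with an unadjusted p under 0.05, which is a smaller share than the 9.39% of all genes, while the median over all genes was 0.01. With genes detected per tumor as a covariate, the median difference was -0.61, with 30 of 33 members lower and 12 with an unadjusted p under 0.05, against 6.91% of all genes, so that the covariate and the narrower range of cells moved the median in opposite directions. With the mean of each cell subtracted, the median over all genes tested moved to 0.03 and 44.9% of genes were lower in R499. The median over the members was then -0.48, with 32 of 33 lower. By limma 11 members had an unadjusted p under 0.05, against 11.0% of all genes.

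Hspa5 (BiP, chr2:34771970-34777547), the Hsp70 chaperone that also holds the sensors inactive, had levels of 8.82 and 9.61 in B16, 8.69 and 8.76 in the B16PD1 pair, and 8.28 and 8.70 in R499. B16008 was the highest tumor and R499015 the lowest, and R499016 was within 0.1 of both B16PD1 tumors. The difference of R499 to B16 was -0.72 ± 0.30 (SE; unadjusted p = 0.026, adjusted p = 0.40 by limma). Without B16008 it was -0.32, and its unadjusted p was no longer under 0.05. That of B16PD1 to B16 was -0.49 ± 0.30, with an adjusted p of 0.99.

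Dnajc3 (P58IPK), a J-protein partner of Hspa5, stood at 4.64 and 4.86 in B16, 4.47 and 3.94 in the B16PD1 pair, and 3.64 and 3.88 in R499. Both R499 tumors were below the others, and the difference to B16 was -0.99 ± 0.34 (SE; limma adjusted p = 0.36). Dnajb9 and Dnajb11, further J-proteins of the ER, differed by -0.48 ± 0.34 and -0.66 ± 0.33 between R499 and B16.

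Sdf2l1, a component of Hspa5 complexes, had the widest gap between tumors of a condition. Its levels were 4.12 and 4.72 in B16, 3.83 and 4.31 in the B16PD1 pair, and 2.32 and 4.11 in R499, so that R499015 stood apart from R499016, which was close to B16007. The share of cells with Sdf2l1 was 38.3% in R499015 and between 59 and 69% in the other tumors. Its difference of R499 to B16 was -1.21 ± 0.47 (SE; limma adjusted p = 0.38) and became -0.31 without R499015, when that to B16PD1 went from -0.86 to 0.04.

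Manf, a secreted ER stress protein, varied almost as widely. It stood at 5.43 and 7.09 in B16, 6.41 and 6.95 in the B16PD1 pair, and 5.37 and 6.03 in R499, and the B16 tumors overlapped those of R499. Its difference of R499 to B16PD1 was -0.98 ± 0.45 (SE; unadjusted p = 0.044 by limma) and was -0.65 without R499015. Creld2, another secreted stress protein, was more even, at 4.48 and 4.72 in B16, 4.39 and 4.69 in the B16PD1 pair, and 3.46 and 3.87 in R499. R499 was the lowest pair for Creld2, with differences of -0.94 ± 0.34 to B16 and -0.88 ± 0.34 to B16PD1. Hsp90b1 (Grp94), the Hsp90 chaperone of the ER, and Hyou1, an exchange factor of Hspa5, differed by -0.50 ± 0.30 and -0.27 ± 0.26 between R499 and B16.

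In the lectin cycle, Calr (calreticulin) had levels of 8.46 and 8.35 in B16, 8.21 and 8.19 in the B16PD1 pair, and 7.54 and 7.76 in R499. The tumors of each condition lay within 0.22 of each other and R499 was lowest, with a difference of -0.75 ± 0.27 to B16 (SE; unadjusted p = 0.013, adjusted p = 0.38 by limma). Calr was also among the 2 members whose unadjusted p stayed under 0.05 in cells with 3000 to 5000 genes, together with Uggt2. Its membrane-bound relative Canx (calnexin) stood at 8.47 and 8.44 in B16, 7.83 and 8.15 in the B16PD1 pair, and 7.87 and 8.41 in R499, and R499016 was close to B16.

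Uggt1 and Uggt2 encode the glucosyltransferases that return misfolded glycoproteins to Calr and Canx. Uggt2 (chr14:118985039-119099430), which lies next to Dnajc3 (chr14:118937976-118981697) on the opposite strand, had the lowest adjusted p of the members. Its levels were 0.37 and 0.57 in B16, 0.11 and 0.15 in the B16PD1 pair, and 0.06 in each R499 tumor. It was thus higher in both B16 tumors than in the other 4, with differences of -0.41 ± 0.09 for R499 (limma adjusted p = 0.17) and -0.34 ± 0.09 for B16PD1 (adjusted p = 0.99). These values rest on 25 cells with the transcript. Uggt1, detected in 57.4% of cells, differed by -0.59 ± 0.33 between R499 and B16.

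Of the disulfide isomerases, P4hb was the most abundant member, at 9.13 and 9.53 in B16, 9.34 and 9.17 in the B16PD1 pair, and 8.81 and 9.04 in R499. R499 was lowest in both tumors, with a difference of -0.41 ± 0.26 to B16. Pdia6, which acts together with Hspa5, stood at 6.97 and 7.48 in B16, 6.99 and 7.21 in the B16PD1 pair, and 6.50 and 6.57 in R499. Its difference of R499 to B16 was -0.69 ± 0.31 (SE; unadjusted p = 0.041, adjusted p = 0.45 by limma), and it was -0.43 without B16008. Pdia4, Pdia3 and Erp44 differed by -0.58 ± 0.36, -0.24 ± 0.29 and -0.37 ± 0.35.

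Ppib (cyclophilin B), a proline isomerase rather than a disulfide isomerase, was higher in R499 than in B16, unlike the other isomerases. Against B16PD1 its difference in R499 was -0.16 ± 0.30. It stood at 7.45 and 7.36 in B16, 8.15 and 7.92 in the B16PD1 pair, and 8.19 and 7.56 in R499, and both B16 tumors were lowest. Its difference was 0.47 ± 0.30 for R499 and 0.63 ± 0.30 for B16PD1, with adjusted p of 0.61 and 0.99 by limma.

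Of the sensors, Atf6 had levels of 2.20 and 2.48 in B16, 2.14 and 2.23 in the B16PD1 pair, and 2.05 and 2.19 in R499. Its variance over cells was the least attributable to tumors, with 0.43% between tumors. Ern1 stood at 0.52 and 0.16 in B16, 0.22 and 0.50 in the B16PD1 pair, and 0.22 and 0.20 in R499, and Eif2ak3 at 0.48 and 0.35, 0.29 and 0.62, and 0.31 and 0.23 in the same order. For Ern1 and Eif2ak3 the tumors of B16 and B16PD1 overlapped. Differences of the 3 sensors between R499 and B16 were -0.22 ± 0.30, -0.13 ± 0.13 and -0.14 ± 0.13 for Atf6, Ern1 and Eif2ak3.

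Xbp1 (chr11:5520659-5525893) had levels of 5.24 and 4.08 in B16, 3.88 and 5.27 in the B16PD1 pair, and 3.68 and 3.33 in R499. Each of B16 and B16PD1 thus had a tumor above 5 and another near 4, and both R499 tumors were below all of these. B16008, highest for most chaperones, was not the higher B16 tumor for Xbp1. The differences of R499 were -1.16 ± 0.46 to B16 and -1.07 ± 0.46 to B16PD1 (SE; limma adjusted p = 0.38 and 0.45). Single tumors moved both values, to -0.58 for B16 without B16007 and to -0.38 for B16PD1 without B16PD1002, each with an unadjusted p no longer under 0.05. With genes detected as a covariate they were -0.61 and -0.20. TPM per gene does not separate the spliced from the unspliced Xbp1 transcript, so activity of Ern1 on it was not measured. Xbp1 was detected in 58.7 to 84.1% of the cells of a tumor.

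ER-associated degradation carries misfolded proteins back to the cytosol. Herpud1, which organizes the degradation complex, stood at 6.53 and 7.36 in B16, 7.05 and 6.87 in the B16PD1 pair, and 5.19 and 6.62 in R499. R499015 was the lowest tumor by more than 1, and the differences of R499 were -1.04 ± 0.42 to B16 and -1.05 ± 0.42 to B16PD1. Without R499015 these were -0.32 and -0.34, and without B16008 the difference to B16 was -0.62.

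Syvn1 (Hrd1), the ubiquitin ligase of that complex, stood at 1.63 and 1.97 in B16, 1.03 and 1.06 in the B16PD1 pair, and 0.88 and 1.12 in R499. Both B16 tumors were above the other 4, with differences of -0.76 ± 0.26 for B16PD1 and -0.80 ± 0.26 for R499 (SE; unadjusted p = 0.011 and 0.0077, adjusted p = 0.99 and 0.35 by limma). These 2 comparisons share the B16 tumors. Syvn1 was detected in 27.8% of cells.

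Derl1 and Derl2 form part of the exit channel. Derl1 stood at 4.35 and 5.20 in B16, 4.80 and 5.05 in the B16PD1 pair, and 3.69 and 4.30 in R499, with R499016 close to B16007. Derl2 stood at 4.10 and 4.36 in B16, 3.70 and 3.40 in the B16PD1 pair, and 3.77 and 2.77 in R499, with R499015 between the B16PD1 tumors and those of B16. The difference of R499 to B16PD1 was -0.93 ± 0.37 for Derl1, and that of R499 to B16 was -0.96 ± 0.37 for Derl2, which was -0.46 without R499016. In cells with 3000 to 5000 genes these values were -0.22 and -0.28. Sel1l, the adaptor of Syvn1, and Edem1, a mannosidase-like lectin, differed by -0.54 ± 0.36 and -0.31 ± 0.29 between R499 and B16.

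The translocation genes were lower in R499 than in B16PD1 for all 4 members, each with an unadjusted p under 0.05 and with no overlap of the tumors, against 8.64% and 31.3% of all genes. Without R499015, only Sec61b and Sec61g of the 4 had such a p, and in cells with 3000 to 5000 genes only Ssr2 did. Sec61g, a channel subunit, stood at 8.41 and 7.85 in B16, 8.60 and 8.64 in the B16PD1 pair, and 7.50 and 7.83 in R499, so that the B16PD1 tumors were highest and B16008 was near R499016. Its difference of R499 to B16PD1 was -0.96 ± 0.29 (SE; unadjusted p = 0.0045, adjusted p = 0.31 by limma), and it was -0.15 with genes detected as a covariate. Sec61b, another channel subunit, stood at 7.28 and 8.45 in B16, 8.14 and 7.91 in the B16PD1 pair, and 7.30 and 6.99 in R499, where B16007 fell among the R499 values.

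Ssr1 and Ssr2 encode subunits of the TRAP complex beside the channel. Ssr2 stood at 8.77 and 9.03 in B16, 8.77 and 9.16 in the B16PD1 pair, and 8.14 and 8.31 in R499. Both R499 tumors were lowest, with differences of -0.67 ± 0.27 to B16 and -0.74 ± 0.27 to B16PD1 (SE; limma adjusted p = 0.39 and 0.37). Ssr1 followed the same order, at 4.44 and 4.47, 4.57 and 4.36, and 3.45 and 4.03, with a difference of -0.73 ± 0.34 to B16PD1 that was -0.44 without R499015.

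The share of cells in which a member was detected was also lowest in R499, but its gap to B16 depended on the filter on cells. The median share over the 33 members was 79.1 and 82.6% in B16, 80.2 and 84.1% in the B16PD1 pair, and 72.8 and 76.0% in the R499 tumors. In cells with more than 2000 genes, the median over members of the mean share was 83.2% in B16, 86.5% in B16PD1 and 83.6% in R499. R499 then stood below B16PD1 but no longer below B16. When a TPM above 10 was required instead, R499 was the lowest condition. The part of genes detected in these shares was not tested.

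The mean over the members of log2(TPM + 1) in single cells spanned a wide range in every tumor. Its median was 4.95 and 5.16 in B16, 4.96 and 5.14 in the B16PD1 pair, and 4.49 and 4.85 in R499, and the highest cell of a tumor reached 7.36 to 7.75 in B16 and B16PD1 but 6.01 and 6.33 in R499. Of the 86 cells of B16008, 22 were among the 10% of retained cells with the highest values (25.6%, 95% Wilson interval 17.5 to 35.7). The other B16 and B16PD1 tumors had 8.79 to 11.4% of their cells in that range, and each R499 tumor had 1 cell, which was 1.23% of R499015 (0.22 to 6.67) and 1.33% of R499016 (0.24 to 7.17). Both R499 tumors were below the other 4, and these shares were not tested.

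**Figure D3:**
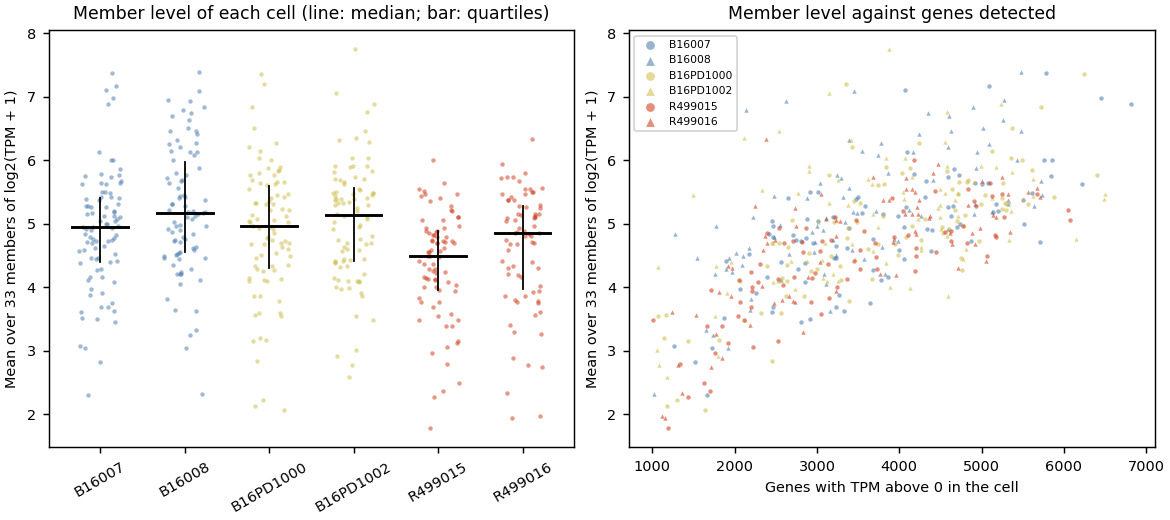
Level of the members in single cells. On the left, each point is a retained cell with the mean over the 33 members of log2(TPM + 1), with the median and quartiles of each tumor, and on the right the same level is plotted against the number of genes detected. All cells above 6.33 come from B16 and B16PD1 tumors, and the level climbs with the number of genes detected in every tumor.

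Most variation of the members lay between cells of a tumor and not between tumors. The share of variance between tumors was 0.43 to 6.45% for single members, with Hspa5 and Xbp1 (6.25%) at the top. Correlations between members were therefore computed over the 507 cells within tumors, after regression of each gene on the number of genes detected in each tumor. Members detected in at least 20% of cells entered, which left out Uggt2, Ern1 and Eif2ak3. Over the 435 pairs of 30 members, the median Pearson's r was 0.072 and 87.6% of pairs were positive. Over all pairs of the 6168 genes detected as often, the median was 0.0016 and 51.4% were positive. An r above 0.2 occurred in 5.75% of member pairs and in 0.0457% of all pairs. Among genes detected in at least 50% of cells, the medians were 0.083 for members and 0.0083 for all pairs. The median over member pairs was positive in each tumor, with 0.063 and 0.10 in B16, 0.084 and 0.133 in the B16PD1 pair, and 0.039 and 0.072 in R499. Cells share library, tumor and depth, and genes are not independent replicates, so these values are descriptions.

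The highest correlations joined the major chaperones and the disulfide isomerases. Hspa5 and Pdia6 had the highest r, 0.34, followed by Pdia4 and Pdia6 (0.29), Hsp90b1 and Pdia6 (0.28), Hspa5 and Hsp90b1 (0.26), and Hspa5 and Pdia3 (0.26). Each of these 5 pairs was positive in all 6 tumors, with a range of 0.02 to 0.49 over tumors for Hspa5 and Pdia6. By mean r with the other 29 members, Hspa5 (0.146), Pdia4 (0.140), Pdia6 (0.125), Hsp90b1 (0.124) and Calr (0.123) stood highest. Xbp1 was the ninth, with a mean r of 0.102 and a positive r with 28 of 29 members.

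Some members stood outside this pattern. The lowest pair was Hspa5 and Ppib, with an r of -0.13 that was negative in all 6 tumors, from -0.19 to -0.03. Canx and Sec61g (-0.10) and Erp44 and Sec61g (-0.09) were next, and these changed sign between tumors. Ppib (0.029), Sec61g (0.034) and Derl2 (0.037) had the lowest mean r.

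**Figure D4:**
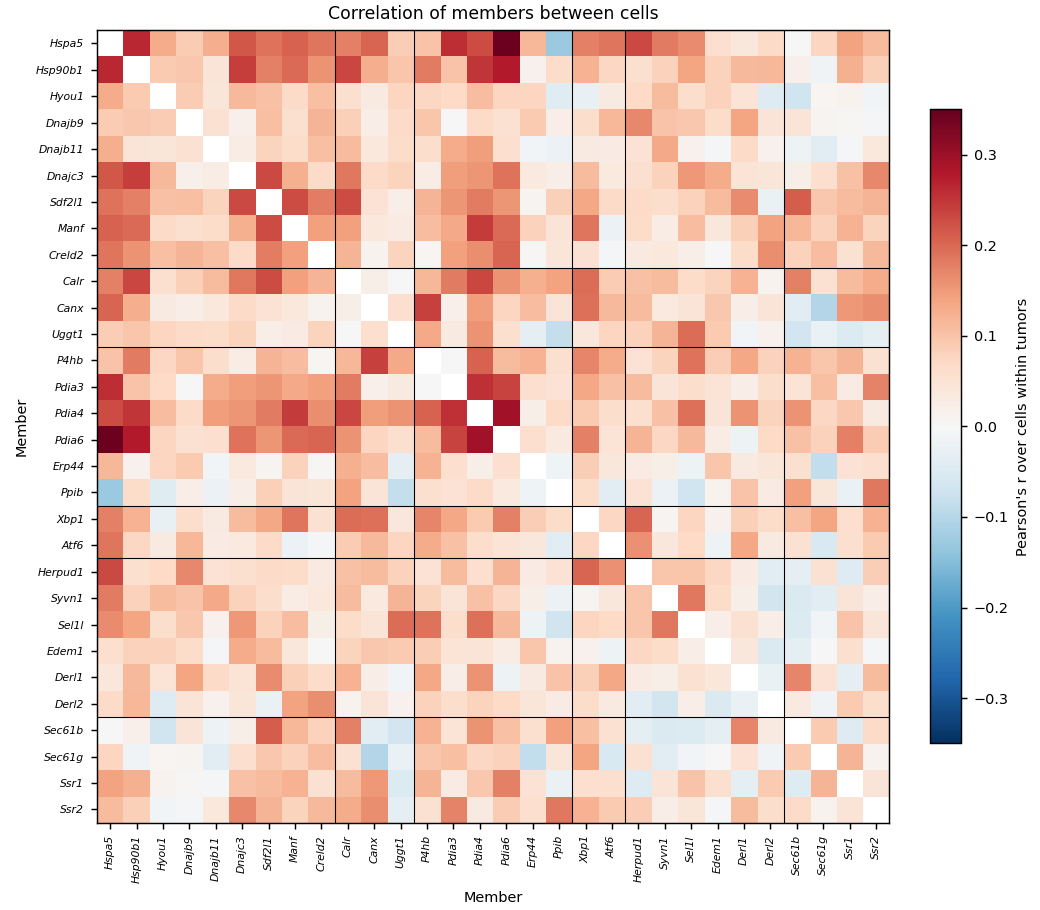
Pearson's r between 30 members over cells within tumors, in the order of their roles, with lines between roles. Colors run from -0.35 (blue) to 0.35 (red). Pairs of Hspa5 and Hsp90b1 with Pdia4 and Pdia6 are among the darkest, and the rows of Ppib and Sec61g hold blue cells.

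The roles were also set against the rest of the list. The mean standardized level of the chaperones had an r of 0.53 with that of the members outside the role, the isomerases 0.52, glycoprotein folding 0.43, degradation 0.41, Xbp1 with Atf6 0.33, and translocation 0.30. In each of the 6 tumors the r was positive for every role. Translocation, whose members shared the difference between R499 and B16PD1, had the lowest r of the 6 roles. Its range over tumors, 0.11 to 0.47, overlapped that of Xbp1 with Atf6, 0.15 to 0.47. The roles differ in their number of genes, and no difference between these r was tested.

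Pairs of members with a motif shown above had a higher median r than the other pairs. For the 45 pairs in which both held ERSE or ERSE-II, the median r was 0.112 and all 45 were positive. It was 0.077 over 150 pairs in which 1 member held a motif and 0.061 over the 105 pairs without. Pairs share genes, so no test was made. All 10 members with a motif were lower in R499 than in B16, as were 17 of the 18 members whose promoter held no motif. The median difference was -0.74 with a motif and -0.47 without. By limma 7 of the 10 and 4 of the 18 had an unadjusted p under 0.05, against 8.12% of all genes lower at that level. Between R499 and B16PD1 the medians were -0.45 and -0.31, with such a p for 2 of 10 members with a motif and 4 of 18 without, against 8.64% of all genes, and Canx, which holds a motif, was the member that was higher. Detection was uneven: with a motif, Hspa5, Hsp90b1, Calr, Canx and Pdia6 were in 92.3 to 99.2% of cells, but Syvn1 in 27.8%. Without a motif, Pdia3 was in 99.2%, Erp44 in 78.3% and Edem1 in 37.1%. Uggt2 (4.93%), Ern1 (8.88%) and Eif2ak3 (10.3%), without a motif, count in the median differences but not in the pairs. The part of detection in these results was not tested.

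**Figure D5:**
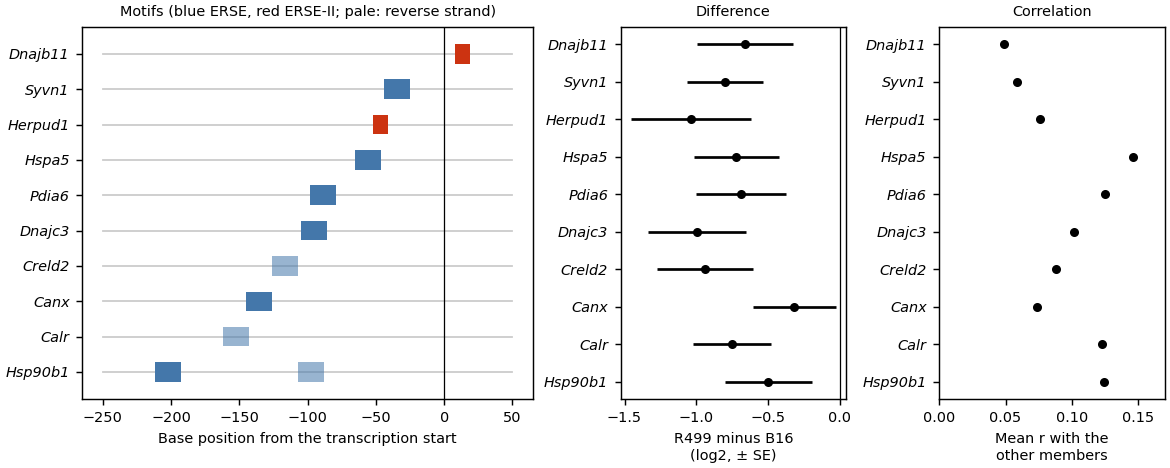
The 10 members with ERSE or ERSE-II, with the position of the motif from the transcription start, the difference of R499 to B16 with its standard error, and the mean r with the other members. Motifs lie between -212 and 18, and all 10 differences are below 0, as were those of 17 of the 18 members whose promoter held no motif.

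Genes outside the list were ranked by the likeness of their levels in cells to the mean standardized level of the members, and 4 of the first 10 were on the list of other ER genes described later. Among 6138 genes detected in at least 20% of cells, the highest r was that of Serp1 (0.43), a small protein that stabilizes membrane proteins at the translocation channel, and it was 0.27 to 0.64 within tumors. Stt3a (0.31), a catalytic subunit of oligosaccharyltransferase, followed with Sec24d (0.30) and Sec31a (0.29), both components of the COPII coat that carries cargo out of the ER. Calu (0.29), Sec61a1 (0.29), Kdelr3 (0.28), Kdelr2 (0.28), Cyb5r1 (0.28) and Zfp9 (0.27) completed the first 10. The median r over these 6138 genes was 0.011.

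Other lists were set beside the members by the r of their mean standardized levels over the same 507 cells. Translocation and glycosylation genes outside the list had an r of 0.56 (0.45 to 0.62 within tumors), and the Kdelr receptors that retrieve ER proteins 0.38. Amino acid response genes had 0.29 (Chac1 and Trib3 are also in the PERK list) and other degradation genes 0.28. The r was 0.25 for the PERK branch (Atf4, Ddit3, genes below them and the initiation factor gene Eif2s1). It was 0.20 for other folding genes and 0.11 for the ATF6 family. Pigment glycoproteins had 0.12, MHC class I genes, whose products Calr, Canx and Pdia3 help to fold, 0.07, and G2/M genes -0.07. Cytosolic chaperones had 0.04, with a range from -0.28 to 0.32 within tumors. That range was 0.02 to 0.48 for amino acid response genes and -0.16 to 0.28 for MHC class I genes. The lists differ in size, from 3 genes (Kdelr receptors, MHC class I) to 20 (translocation and glycosylation), and no difference between these r was tested.

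A further 67 genes of the ER pathways, listed by role, were compared between conditions, of which 66 passed the filter and Derl3 was at 0. Between R499 and B16, 54 of the 66 were lower, with a median difference of -0.43. In limma 0 passed the adjusted threshold, 19 were lower with an unadjusted p under 0.05, against 8.12% of all genes, and 1 was higher (Cnpy2), against 2.42%. Between R499 and B16PD1, 55 were lower, with a median of -0.37, 20 with an unadjusted p under 0.05, against 8.64% of all genes, and Cnpy2 again higher, against 1.56%. Between B16PD1 and B16 the median was 0.01 and 0 genes had such a p.

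Retrieval receptors were lower in R499 for all 3 members in both comparisons. Kdelr3, detected in 24.5% of cells, stood at 1.49 and 1.97 in B16, 2.09 and 2.01 in the B16PD1 pair, and 0.71 and 0.45 in R499. Both R499 tumors were lowest, with a difference of -1.47 ± 0.28 to B16PD1 (SE; adjusted p = 0.077 by limma) and -1.15 ± 0.28 to B16 (adjusted p = 0.22). Kdelr1 and Kdelr2 differed from B16 by -0.95 ± 0.36 and -0.67 ± 0.30.

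In the PERK branch, Ppp1r15a (GADD34), which returns the initiation factor to its active state, stood at 4.64 and 4.16 in B16, 4.40 and 4.40 in the B16PD1 pair, and 3.04 and 3.17 in R499. The R499 tumors were the lowest pair, with differences of -1.29 ± 0.33 to each of B16 and B16PD1 (SE; limma adjusted p = 0.22 and 0.23). Atf4, the transcription factor of this branch, stood at 8.50 and 9.05, 8.57 and 9.02, and 7.81 and 8.25 in the same order and differed from B16 by -0.75 ± 0.30. Trib3, Sesn2 and Chac1, targets of Atf4, differed from B16 by -0.86 ± 0.31, -0.73 ± 0.27 and -0.76 ± 0.33. Ddit3 (CHOP) did not follow them, with 0.46 ± 0.32. Its difference of R499 to B16PD1 was 0.23 ± 0.32. Ddit3 lies on chromosome 10 at 127290774 to 127296288, and Cnpy2 lies at 128322459 to 128327553. Cnpy2 differed by 0.89 ± 0.34 from B16 and 1.08 ± 0.34 from B16PD1. Os9, which lies closer to Ddit3, at 127095650 to 127121131, differed by 0.19 ± 0.33 from B16. Whether position on the chromosome bears on these differences was not tested.

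Among translocation and glycosylation genes, 18 of 20 were lower in R499 than in B16, with a median of -0.54. Differences were -1.27 ± 0.37 for Srprb, a receptor of the signal recognition particle, -1.06 ± 0.31 for Rpn2, an oligosaccharyltransferase subunit, -1.05 ± 0.33 for the channel subunit Sec61a1, -0.95 ± 0.36 for Tram1 and -0.92 ± 0.34 for Srpr. Stt3b, the other catalytic oligosaccharyltransferase subunit, differed by -0.77 ± 0.32 from B16 and -1.26 ± 0.32 from B16PD1. The most abundant of the 67 other ER genes, Atf4, Dad1 and Ostc, differed from B16PD1 by -0.77 ± 0.30, -0.78 ± 0.28 and -0.69 ± 0.32. By contrast, folding genes outside the members had a median of -0.16 with 10 of 18 lower than in B16.

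Amino acid response genes, of which Chac1 and Trib3 were already counted in the PERK branch, had a median difference of -0.67 to B16 with 9 of 10 lower. Gene lists outside the ER pathways gave medians of both signs. Cytosolic chaperones had -0.09 with 7 of 10 lower, MHC class I genes 0.46 with 1 of 3 lower, pigment glycoproteins 0.05 with 2 of 5 lower, and G2/M genes 0.04 with 3 of 6 lower. Against B16PD1, amino acid response genes had -0.58 with 9 of 10 lower in R499, and G2/M genes -0.35 with 6 of 6 lower. Cytosolic chaperones had 0.03 with 4 of 10 lower, MHC class I genes 0.73 with 0 of 3, and pigment glycoproteins 0.19 with 1 of 5. The lists are short and no difference between lists was tested.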

How the data were processed

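Single-cell RNA sequencing of CD45-negative cells from 6 mouse melanoma tumors was analysed. The authors aligned reads with STAR in 2-pass mode, quantified expression with RSEM, and deposited 1 table of TPM for 25215 genes and 602 cells, in which each cell summed to about 1000000 TPM. The submitters' processing notes also name GATK and the build mm10; versions are not given in the sources used here. TPM is scaled within a cell, so a gene's value falls when others take a larger share, and read depth is lost. Column names give the condition and a tumor number but not the replicate numbers of the labels, so each tumor is known by its condition only.

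A cell was retained if over 1000 genes had TPM above 0 and mitochondrial TPM was under 10%. A gene was tested if over 5 of these cells had it. The study's minimum of mapped reads could not be applied to TPM, so its set of cells may differ. Doublets were not called. For each tumor, log2(TPM + 1) was averaged over cells; a fold change on this scale understates the change of low genes. The 3 contrasts were fitted on 6 tumors with limma 3.58.1 (R 4.3.3; eBayes with a trend, two-sided, Benjamini-Hochberg over 11264 genes, threshold 0.05). The labels do not say more than that replicates are separate samples of a group; the study's methods name separate mice. Correlations used residuals on genes detected within tumors. Steps used Python 3.11.15 with matplotlib 3.10.9, scipy 1.17.1, pandas 2.3.3 and numpy 2.4.6 and were tested on simulated data. Positions are from GENCODE on GRCm38 and promoters from RefSeq on GRCm38.p6.

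The members, lists and tests were chosen with earlier results of these data known. Tumor values are given for the 5 most abundant members, members with an unadjusted p under 0.05 in any contrast, the sensors with Xbp1, and the 3 with the widest gap between tumors of a condition, with Canx, Ppib and Ssr1 described beside them. The 5 highest and 3 lowest pairs, the 10 genes most like the members, and other ER genes with an unadjusted p under 0.05 or among the 3 most abundant are described, some by counts only. Alternatives were pseudocounts of 0.1 and 10, the log2 of mean TPM, other filters on genes (none, more than 10 cells) and cells (none, under 5% mitochondrial TPM, more than 2000 genes), centring of cells, limma without a trend or with genes detected per tumor as covariate, each tumor left out, and, chosen after seeing the data, cells with 3000 to 5000 genes. For shares of cells a TPM above 10 was tried, and for correlations no regression, Spearman's rho, a pseudocount of 10 and genes in at least 50% of cells.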

Additional observations from a re-analysis of the deposited data

How the results depend on the processing

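No member passed the adjusted threshold under any of the 18 alternatives to the limma fit in any contrast. Of the 33 members, 27 kept the sign of their difference between R499 and B16 under every alternative, 19 between R499 and B16PD1, and 10 between B16PD1 and B16. The median over the members of R499 minus B16 was -0.77 at a pseudocount of 0.1, -0.30 in cells with 3000 to 5000 genes, and -0.74 to -0.33 with each tumor left out. That of R499 minus B16PD1 was -0.24 at a pseudocount of 10, and that of B16PD1 minus B16 was -0.30 to 0.054 with each tumor left out. Without R499015 the median over members was -0.35 for R499 minus B16 and -0.33 for R499 minus B16PD1, against -0.06 and -0.07 over all genes. Without B16PD1002 that of R499 minus B16PD1 was -0.38, against -0.09 over all genes.

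Calls over all genes were unstable. For R499 minus B16 there were 7, and 11 and 3 at pseudocounts of 0.1 and 10, 0 with the log2 of mean TPM, 0 without a filter on genes, 13 with genes in over 10 cells, 22 without a filter on cells, 20 with more than 2000 genes per cell, 28 with cells centred, 0 with the covariate, 0 without a trend, 12 in cells with 3000 to 5000 genes, and 0 to 10 with each tumor left out. For R499 minus B16PD1 there were 8, and in the same order 13, 3, 0, 0, 15, 16, 14, 22, 0, 0, 3, and 3 to 8. For B16PD1 minus B16 there were 0, and 0 to 2 with each tumor left out. Of the other ER genes, 1 (Kdelr3) passed for R499 minus B16PD1 at a pseudocount of 0.1, with genes in more than 10 cells, without a filter on cells and with cells centred.

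The median share of cells with a member moved with the filter on cells. In B16 it was 75.1% without a filter, 83.2% with more than 2000 genes, 75.6% for a TPM above 10, 88.5% in cells with 3000 to 5000 genes, and 78.5 to 82.6% with each tumor left out. In B16PD1 it was 86.5% with more than 2000 genes, 77.0% for a TPM above 10 and 90.7% in cells with 3000 to 5000 genes. In R499 it was 71.1, 83.6, 66.1 and 88.6% under the same 4 settings as B16, and 72.8 to 76.0% with each tumor left out. The median r of member pairs was 0.14 without regression on genes detected, where that of all pairs was 0.078, and otherwise 0.067 to 0.10.

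No paired analysis was possible because the columns carry none of the replicate numbers of the labels. With 2 tumors a condition, differences under about the spread between tumors could not be resolved, and a member detected in few cells is limited by detection.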
